A study of Homo sapiens with 4 samples.

Results

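The transcripts examined here encode 10 transcription factors, many of which cells switch on within minutes of a growth or stress signal, namely the Fos proteins FOS, FOSL1 and FOSL2, the Jun proteins JUN, JUNB and JUND, the related basic leucine zipper proteins ATF3 and MAFF, and the zinc finger factors EGR1 and KLF6. They were chosen by gene symbol, and all 10 were found once each among the 12912 genes of the count table. The comparison was between 786-O-Ctrl, called control cells, and 786-O-VHL, called VHL-restored cells, with 2 RNA-seq libraries each. 786-O derives from a human clear cell renal carcinoma and lacks functional VHL. VHL-restored cells express HA-tagged VHL from a retroviral vector, and the labels give both sublines as their triple-reporter versions, with a fusion of thymidine kinase, GFP and luciferase. What control cells carry in place of the VHL vector is not given in the sources used here. Each group is 1 subline in RPMI1640 with 10% serum, no time after a stimulus is given, and p-values measure only the spread between the libraries of a subline, which may be technical.

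AP-1 is not a single protein but a family of dimers. Jun proteins pair with each other or with Fos, ATF and Maf proteins, while Fos proteins need a partner, and the make-up of the dimer sets which DNA sites are bound and whether a target is switched on or damped. JUN and FOSL1 are usually tied to proliferation and invasion, JUNB and JUND often to its restraint, ATF3 to the response to cell stress, and EGR1 and FOS to the first wave of transcription that follows ERK signaling. In kidney cells these factors respond to growth factors, matrix and injury.

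The counts summed to between 2807779 and 22141263 per library, and VHL-restored replicate 1 was the shallowest. The header of the table gives both control columns the same name, so they are called the deeper and the shallower control library. Levels are CPM, counts per 1000000 after TMM scaling of each library, in which 3 counts correspond to 0.142 and 0.199 CPM in the control libraries and to 1.02 and 0.178 CPM in VHL-restored replicates 1 and 2. VHL mRNA was at 42.9 and 43.9 CPM in control cells and at 178 and 163 CPM in VHL-restored cells, in the direction of the labels. The mRNAs of HIF1A and EPAS1 were higher in VHL-restored cells, with log2 fold changes of 1.35 and 1.37 (edgeR FDR = 1.18e-16 and 3.22e-17), while ARNT had -0.17 (edgeR FDR = 0.0901). For protein the paper reports the reverse for HIF2α, the product of EPAS1, which was diminished in VHL-restored cells by Western blot. It also states that 786-O does not express HIF1α. The renal epithelial markers were all 8 in the table and summed to between 1482 and 1922 CPM, with 2 higher and 4 lower in VHL-restored cells, whereas the leukocyte markers PTPRC, CD3E, CD68 and LYZ and 2 of 5 endothelial markers (CDH5 and VWF) had no row. The leukocyte marker CD14 was at 1.02 CPM or less, and the other endothelial markers summed to 1.33 CPM or less. Fold changes compare VHL-restored with control cells and come from edgeR's quasi-likelihood test, with Benjamini-Hochberg adjustment (FDR) over the 12335 genes tested.

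Of the 10 factors, 6 were higher in VHL-restored cells at an FDR under 0.05 (EGR1, ATF3, JUNB, MAFF, FOSL2 and KLF6), 1 was lower (FOSL1), and 3 did not pass (FOS, JUN and JUND). All 10 had enough counts to be tested. In RNA from whole cultures, more cells with a transcript and more of it per cell cannot be told apart. Among all genes tested, 64.5% passed this threshold, 32.6% as higher and 31.9% as lower, so that the 7 called of 10 are near the share of the background and the 6 called as higher lie above it. The median log2 fold change of the 10 was 0.76, beside 0.02 over all genes tested. EGR1 and ATF3 also passed a 4-fold change with an FDR under 0.01, which 4.46% of the genes did (2.92% as higher). The libraries of the groups did not overlap for 8 of the factors, which is the share seen over all genes (80.0%).

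**Figure D1:**
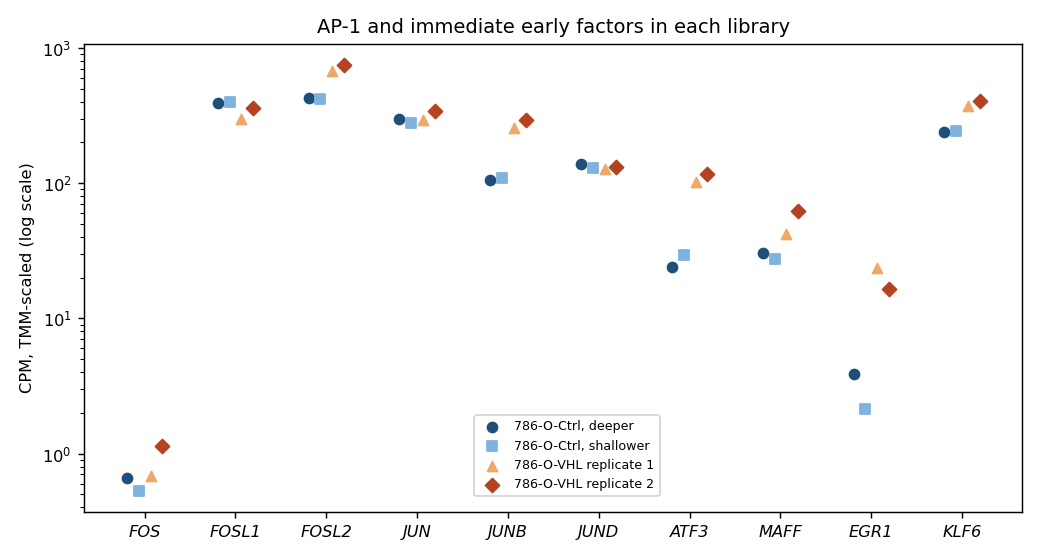
Level of each factor in each library, in CPM on a log axis, with 1 point per library. EGR1, ATF3 and JUNB stand clearly apart between the sublines, FOSL1 is the only factor with both VHL-restored points below both control points, and FOS lies near 1 CPM in all 4 libraries.

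**Figure D2:**
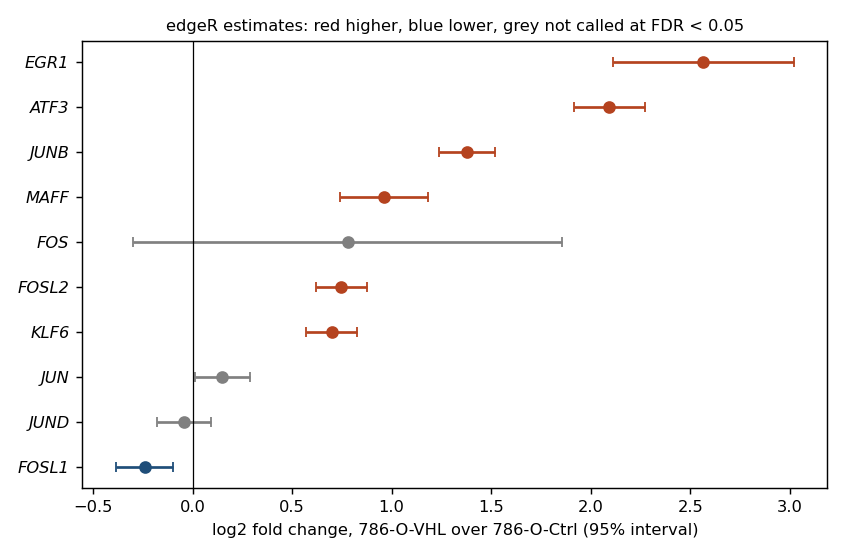
Log2 fold change of each factor with its 95% interval, from the fit over all 4 libraries. The intervals of 6 factors lie above 0 and pass the FDR of 0.05, that of FOSL1 lies below 0, that of JUN lies just above 0 without passing the FDR, and those of FOS and JUND span 0.

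Within the Jun family the change was carried by JUNB. JUNB (ENSG00000171223.6, chromosome 19 of GRCh37 from 12902300 to 12904129, plus strand) was at 105 and 109 CPM in the deeper and the shallower control library and at 257 and 292 CPM in VHL-restored replicates 1 and 2. Both VHL-restored libraries were thus more than 2 times as high as both control libraries, and the log2 fold change was 1.38 (standard error, SE, 0.0679, edgeR FDR = 2.51e-16). An annotated gene on the opposite strand, HOOK2, covers part of JUNB, and the level of HOOK2 itself was 26.3 ± 2.31 CPM in control cells and 29.5 ± 0.898 CPM in VHL-restored cells (SD, n = 2 each). JUN (ENSG00000177606.6, chromosome 1 from 59242517 to 59249720, minus strand), the founding member of the family, was at 297 and 279 CPM in control cells and at 292 and 339 CPM in VHL-restored cells. The groups overlapped, since VHL-restored replicate 1 lay between the control libraries, and the log2 fold change of 0.15 (95% interval 0.01 to 0.29) did not pass (edgeR FDR = 0.0553). Without VHL-restored replicate 1 it was 0.23 (edgeR FDR = 0.000117) and without replicate 2 it was 0.01 (edgeR FDR = 0.895), so that the call for JUN depended on the library used. JUND (ENSG00000130522.5, chromosome 19 from 18390504 to 18392432, minus strand), whose mRNA is usually steady in growing cells, was at 139 and 128 CPM in control cells and at 126 and 132 CPM in VHL-restored cells. Here too the groups overlapped, with a log2 fold change of -0.04 (95% interval -0.18 to 0.09, edgeR FDR = 0.595) whose sign turned with scaling by library totals alone (0.091) and without the deeper control library (0.0092).

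The upstream sequences of these 3 genes are shown because the Jun genes are themselves known targets of AP-1 and CREB family dimers. Each is the 250 bases before the RefSeq start of the gene in GRCh38.p14, on the strand of the gene. The windows are JUNB at chr19:12791236-12791485 (plus strand), JUN at chr1:58784048-58784297 (minus strand) and JUND at chr19:18281623-18281872 (minus strand). Capitals mark matches on either strand to TGACGTCA (the cyclic AMP response element), to its core TGACG or to TGACATCA (the site through which JUN is known to regulate its own gene).
JUNB: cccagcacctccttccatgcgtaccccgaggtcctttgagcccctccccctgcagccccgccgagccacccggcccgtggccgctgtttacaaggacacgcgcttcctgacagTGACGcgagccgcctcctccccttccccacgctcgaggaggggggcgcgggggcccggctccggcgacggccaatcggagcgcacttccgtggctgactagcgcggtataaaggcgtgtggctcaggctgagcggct
JUN: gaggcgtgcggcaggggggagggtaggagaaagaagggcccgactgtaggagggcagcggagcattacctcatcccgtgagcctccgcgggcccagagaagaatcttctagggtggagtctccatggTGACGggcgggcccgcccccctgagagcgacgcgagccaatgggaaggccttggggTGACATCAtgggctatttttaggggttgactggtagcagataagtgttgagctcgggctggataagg
JUND: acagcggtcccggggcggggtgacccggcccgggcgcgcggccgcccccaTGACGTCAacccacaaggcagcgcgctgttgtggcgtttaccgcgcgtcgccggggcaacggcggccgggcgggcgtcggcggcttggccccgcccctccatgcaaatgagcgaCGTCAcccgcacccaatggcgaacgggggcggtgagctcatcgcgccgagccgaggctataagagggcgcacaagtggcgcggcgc
The full response element was found in the window of JUND, 200 to 193 bases upstream of the start, and in 1.65% of 35116 promoters of the same length. The core, which the full element holds on both strands, occurred in all 3 windows and in 21.2% of promoters. TGACATCA was found in the JUN window, 67 to 60 bases upstream, and in 2.37% of promoters. Among the 11 windows that RefSeq gave for 9 of the 10 factors, TGACGTCA was found in 2, TGACG in 7 and TGACATCA in 3, and the AP-1 site TGACTCA in 0, beside 4.20% of all promoters. The HIF core ACGTG was found in 5 of the 11 windows, both windows of MAFF among them (18.5% of all promoters), and GCGTG in 5 (32.2%). In KLF6 and in both MAFF windows the match to ACGTG was CACGTG, which holds it on both strands. Whether these shares differ from those of all promoters was not tested. FOSL1 had no entry. A match describes the letters of a window, not a bound site.

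Dividing the levels by the length of the exons in GENCODE v44lift37 (RPKM) allowed the members of a family to be compared with each other. In control cells the Jun family was shared rather evenly, with JUN at 38.3 ± 0.653%, JUND at 33.4 ± 0.962% and JUNB at 28.2 ± 1.62% of the summed level (SD, n = 2). In VHL-restored cells, JUNB held 49.3 ± 0.417%, JUN 28.6 ± 0.681% and JUND 22.1 ± 1.10% (SD, n = 2). JUNB thus went from the lowest to the highest of the 3 per kilobase, and the share of each moved by more than the spread between libraries. Without division by exon length JUN stayed the highest, at 43.9% beside 38.1% for JUNB in VHL-restored cells. The ratio of JUNB to JUN was 0.698 and 0.775 in the control libraries and 1.74 and 1.70 in VHL-restored replicates 1 and 2. Summed over the family, the level was 211 and 203 RPKM in control cells and 286 and 321 RPKM in VHL-restored cells, a rise of 96.4 RPKM in the means, of which 91.4 RPKM was JUNB. With 2 libraries against 2, an exact permutation test cannot go below p = 0.33, so these shares carry no test.

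**Figure D3:**
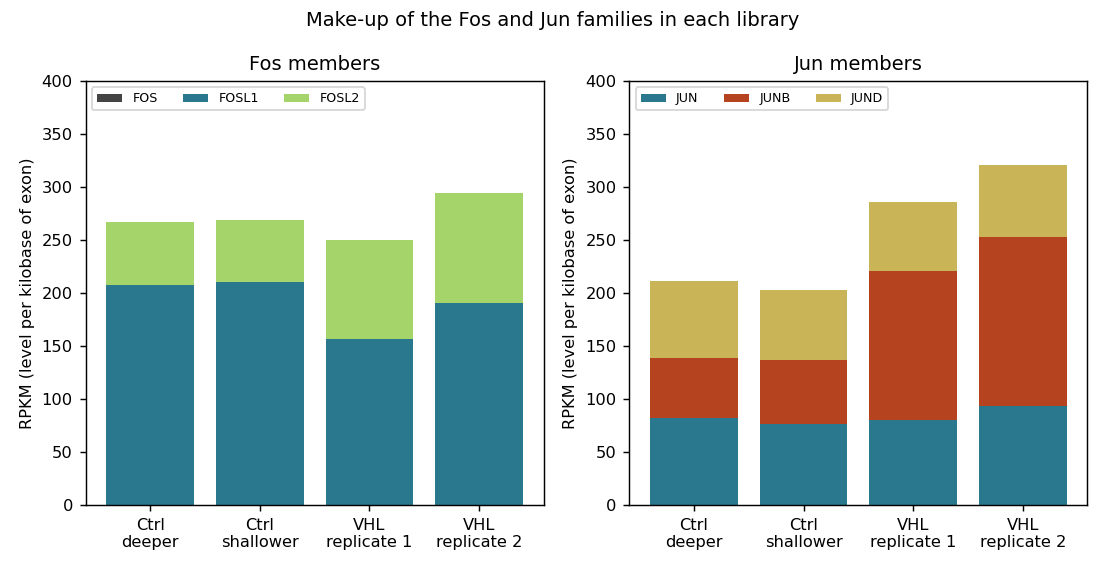
Summed level of the Fos members (left) and of the Jun members (right) in each library, in RPKM, stacked by gene. JUNB takes up a larger part of the Jun bars in both VHL-restored libraries, and FOSL2 a larger part of the Fos bars, while the height of the Fos bars stays between 251 and 295 RPKM.

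The 3 Fos genes among the 10 factors moved in different ways. FOSL1 (ENSG00000175592.8, chromosome 11 from 65659520 to 65668044, minus strand), which encodes Fra-1 and is raised in many invasive carcinomas, had the highest level of the 10 factors per kilobase of exon, at 209 and 174 RPKM in control and VHL-restored cells and at percentile 99.0 over all genes with a length. In CPM, which does not allow for length, FOSL2 was above it in both groups. FOSL1 was at 391 and 397 CPM in the deeper and the shallower control library and at 296 and 359 CPM in VHL-restored replicates 1 and 2. Both VHL-restored libraries were lower, by a log2 fold change of -0.24 (SE 0.0702, edgeR FDR = 0.00389). The size depended on the VHL-restored library, with -0.42 without replicate 2 and -0.13 without replicate 1, and with scaling by library totals alone, which shifts the median of all genes by 0.13, the value of -0.11 did not pass (edgeR FDR = 0.176). FOSL2 (ENSG00000075426.12, chromosome 2 from 28615315 to 28640184, plus strand), which encodes Fra-2, was at 427 and 421 CPM in control cells and at 670 and 744 CPM in VHL-restored cells. All 4 libraries kept the groups well apart, and the log2 fold change was 0.75 (SE 0.0629, edgeR FDR = 2.94e-11). A long noncoding RNA on each strand is annotated across part of FOSL2, and the use of strand in counting is not given in the sources used here.

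FOS (ENSG00000170345.10, chromosome 14 from 75745529 to 75748933, plus strand), the archetype of a gene switched on within minutes, was close to the limit of detection in these growing cells. Its counts were 14 and 8 in the control libraries and 2 and 19 in VHL-restored replicates 1 and 2, or 0.665, 0.532, 0.678 and 1.13 CPM. The exact 95% Poisson intervals, which cover counting error only, were 0.363 to 1.12 and 0.23 to 1.05 CPM in control cells, and 0.0821 to 2.45 and 0.679 to 1.76 CPM in VHL-restored cells, and they overlapped throughout. A difference in FOS was therefore not detectable at this depth (log2 fold change 0.78, 95% interval -0.30 to 1.85, edgeR FDR = 0.198), and without VHL-restored replicate 2 the value was 0.15. FOSL1 and FOSL2 made up almost all of the summed RPKM of these 3 Fos genes. FOS held 0.0701 ± 0.0114% of it in control cells and 0.103 ± 0.0249% in VHL-restored cells (SD, n = 2). A further Fos gene, FOSB, is not among the 10 factors and was left out of the sum. It was at 0.137 RPKM in control cells and at 0.405 RPKM in VHL-restored cells. FOSL1 went from 77.9 ± 0.362% to 63.6 ± 1.42% and FOSL2 from 22.1 ± 0.351% to 36.3 ± 1.44% (SD, n = 2 each), so that FOSL1 remained the larger part per kilobase. Without division by exon length FOSL2 was the larger part in both groups. The summed level was 267 and 269 RPKM in control cells and 251 and 295 RPKM in VHL-restored cells, where the groups overlapped.

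EGR1 showed the largest fold change of the 10. EGR1 (ENSG00000120738.8, chromosome 5 from 137801168 to 137804992, plus strand) encodes a zinc finger factor that is induced by serum and ERK and binds GC-rich promoters. Its counts were 81 and 32 in the control libraries, the deeper one first, and 69 and 279 in VHL-restored replicates 1 and 2, or 3.85, 2.13, 23.4 and 16.6 CPM. The libraries of a group differed from each other, and still the lowest VHL-restored library was more than 4 times the highest control library. The log2 fold change was 2.57 (SE 0.221, 95% interval 2.11 to 3.02, edgeR FDR = 4.73e-11), rank 216 from the top among the 12335 genes tested. With each library left out in turn it stayed between 2.27 and 3.13. Per kilobase of exon, EGR1 mRNA was at 0.952 RPKM in control cells and at 6.37 RPKM in VHL-restored cells. In both groups this was well below JUN or FOSL1. The mean over all 4 libraries, low control libraries included, lay at percentile 41.9 of RPKM.

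The window upstream of EGR1 is shown because it holds the sites through which serum response factor is known to switch the gene on. It lies at chr5:138465229-138465478 of GRCh38.p14 (plus strand), and capitals mark the CArG boxes, the sites of that factor, and the core TGACG on either strand.
EGR1: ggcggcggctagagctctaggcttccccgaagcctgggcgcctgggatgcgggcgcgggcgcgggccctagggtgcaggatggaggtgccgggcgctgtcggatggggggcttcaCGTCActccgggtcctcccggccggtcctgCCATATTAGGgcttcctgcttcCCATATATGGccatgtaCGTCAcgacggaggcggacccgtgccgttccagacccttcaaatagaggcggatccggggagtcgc
There were 2 CArG boxes, 105 to 96 and 83 to 74 bases upstream of the start, and a CArG box was found in 1.16% of all promoters and in 1 of the 11 windows of these factors. The core TGACG occurred 2 times in the window.

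ATF3 (ENSG00000162772.17, chromosome 1 from 212738676 to 212794119, plus strand) is induced by amino acid shortage, endoplasmic reticulum stress and DNA damage and pairs with Jun proteins. It was at 23.9 and 29.3 CPM in control cells and at 103 and 117 CPM in VHL-restored cells. No library of a group came near those of the other, and the log2 fold change was 2.09 (SE 0.0874, edgeR FDR = 7.33e-18), rank 342 from the top of all genes tested. MAFF (ENSG00000185022.12, chromosome 22 from 38596774 to 38612514, plus strand), a small Maf protein that lacks an activation domain and pairs with NFE2-related and BACH factors, was at 30.3 and 27.6 CPM in control cells and at 42.4 and 61.9 CPM in VHL-restored cells. Both VHL-restored libraries were higher but differed from each other by more than the control libraries did. The log2 fold change was 0.96 (SE 0.108, edgeR FDR = 8.95e-09), and 0.54 without VHL-restored replicate 2 (edgeR FDR = 0.00533). PLA2G6 is annotated on the opposite strand across part of MAFF and was itself higher in VHL-restored cells (11.1 ± 0.836 CPM) than in control cells (5.26 ± 0.290 CPM, SD, n = 2 each), with a log2 fold change of 1.11, and its part in the MAFF counts was not tested. KLF6 (ENSG00000067082.15, chromosome 10 from 3818188 to 3827473, minus strand), a zinc finger factor of the same early wave, was at 240 and 243 CPM in control cells and at 372 and 405 CPM in VHL-restored cells. The groups were well apart, with a log2 fold change of 0.70 and a SE of 0.063 (edgeR FDR = 1.22e-10).

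Other genes of the same circuits were read from lists, each described by its counts beside the 32.6% higher and 31.9% lower among all genes tested. Of 18 tested partners and relatives with a basic leucine zipper, 13 were higher and 3 were lower, with a median log2 fold change of 0.53. NFE2, a partner of the small Maf proteins, had no count in either control library but 3 and 25 in the VHL-restored ones. Pooled over the latter, its rate was 1.41 CPM, which is 17.0 times the limit of 3 counts over both control libraries (0.0831 CPM). That value leaves the counting error of the VHL-restored libraries aside, and most of their counts came from replicate 2. BACH2, BATF3 and FOSB, with log2 fold changes of 2.52, 1.5 and 1.34 (edgeR FDR = 6.95e-06, 0.0159 and 0.00964), were all under 4 CPM. Without VHL-restored replicate 2 the value of BACH2 was 1.85. With DESeq2 the adjusted p was 0.00258 for BACH2, while BATF3 and FOSB did not pass (0.169 and 0.085). Those lower were CREB5, MAF and NFE2L3, by -0.27, -0.25 and -0.17 (edgeR FDR = 0.00463, 0.0334 and 0.0197), of which MAF overlapped between the groups. The direction of MAF turned without VHL-restored replicate 2 (log2 fold change 0.17), and DESeq2 gave -0.13 with an adjusted p of 0.744. Only 5 of these 16 calls, those of JDP2, ATF1, MAFK, NFE2L1 and NFE2L2, held with each library left out in turn, and without VHL-restored replicate 2 the number higher was 5. The number lower was 0 without the shallower control library and 1 without the deeper one.

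Among 25 tested immediate early genes other than the 10 factors, 18 were higher and 3 were lower, and the median was 0.64 on the log2 scale. NR4A3, an orphan nuclear receptor, was at 0.57 and 0.199 CPM in control cells and at 5.09 and 5.28 CPM in VHL-restored cells, which is a log2 fold change of 3.64 with a SE of 0.405 (edgeR FDR = 7.71e-09). It rested on 12 and 3 counts in the control libraries, and the value was 4.64 without the deeper of them and 3.17 without the shallower. KLF4, a zinc finger factor tied to arrest and differentiation, went from 22.4 and 24.7 CPM to 130 and 134 CPM, which is a log2 fold change of 2.51 with a SE of 0.0772 (edgeR FDR = 1.07e-20). PPP1R15A, which encodes the phosphatase subunit GADD34 of the integrated stress response, and GADD45B, a stress sensor upstream of p38 and JNK, had log2 fold changes of 2.25 and 1.69 (edgeR FDR = 5.26e-19 and 2.41e-14). The 3 that fell were EGR2, with -1.28 (edgeR FDR = 0.015), and NAB1 and NAB2, which encode corepressors that bind EGR proteins, with -0.61 and -0.37 (edgeR FDR = 1.53e-05 and 0.00926). EGR2 moved in the opposite direction to EGR1, yet it had 5 and 12 counts in the VHL-restored libraries and its call was lost without the deeper control library or without VHL-restored replicate 2, where the value was -0.34. Of the 21 calls in this list, 14 held with each library left out in turn.

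**Figure D4:**
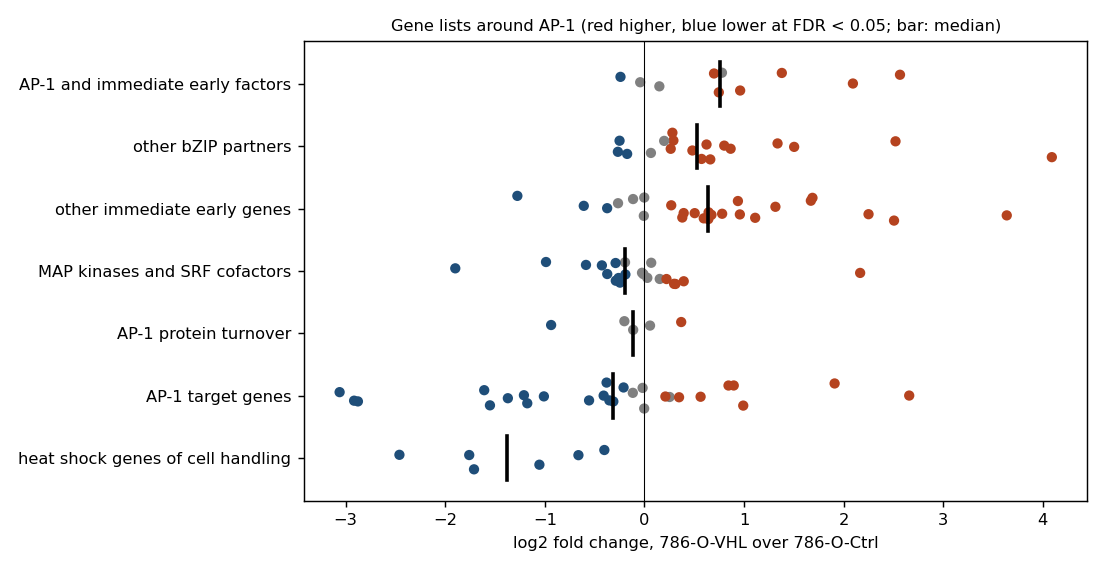
Log2 fold change of each tested gene in the lists, 1 point per gene, with the median of each list as a bar and NFE2 drawn at its lower bound. The medians of the partners (0.53) and of the immediate early genes (0.64) lie above 0 near that of the 10 factors (0.76). Those of the kinases, the genes for AP-1 protein turnover (-0.11), the target genes and the heat shock genes lie below 0.

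The kinases and cofactors that act before these factors did not move with them as a group. Of 21 tested, 5 were higher and 10 were lower, and the median was -0.19 on the log2 scale. MAPK10, the JNK3 gene, which is best known from neurons, was the exception in size, at 6.41 and 6.05 CPM in control cells and at 35.6 and 25.3 CPM in VHL-restored cells (log2 fold change 2.17, SE 0.161, edgeR FDR = 2.06e-12). The other genes that rose were MAP2K2, ELK4, RPS6KA5 and MRTFB, all with log2 fold changes of 0.39 or less. The calls of RPS6KA5 and MRTFB (edgeR FDR = 0.0486 and 0.0428) were each lost in 3 of the 4 fits that lacked a library, without either control library for both, without VHL-restored replicate 2 for RPS6KA5 and without replicate 1 for MRTFB, and DESeq2 gave adjusted p = 0.405 and 0.226. MAP2K6 and RPS6KA4 fell most, by -1.90 and -0.99 (edgeR FDR = 0.000836 and 5.79e-12), followed by MAP2K3 and MAP2K1, kinases upstream of p38 and of ERK, with -0.59 and -0.43 (edgeR FDR = 1.02e-07 and 5.25e-06). MAP2K6 had 3 and 9 counts in the VHL-restored libraries, and its call was lost without replicate 2, with a log2 fold change of -1.18. Of the 15 calls in this list, 8 held with each library left out in turn. Without either control library, 3 genes of the list rather than 5 were higher. Of 5 tested genes for the ubiquitin ligases that degrade JUN and its relatives, ITCH was higher by 0.37 (edgeR FDR = 1.08e-05), DDB1 was lower by a log2 fold change of -0.94 (edgeR FDR = 2.84e-13), and 3 did not pass.

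Genes commonly used as AP-1 targets were split. Of 27 tested, 8 were higher and 15 were lower, and the median was -0.31 on the log2 scale. The largest falls were those of secreted inflammatory factors, CCL2 (log2 fold change -3.06), CSF2 (-2.91) and CXCL8 (-2.88), and of the gelatinase gene MMP9 (-1.61), with edgeR FDR values of 9.82e-07, 4.27e-08, 1.91e-18 and 2.62e-05. CXCL8 was at 78.1 and 91.4 CPM in control cells and at 13.6 and 11 CPM in VHL-restored cells. The falls of CCL2 and CSF2 rested on few counts in VHL-restored cells. CCL2 had 74 and 65 counts in the control libraries and 2 and 7 in VHL-restored replicates 1 and 2. For CSF2 they were 119 and 90 in the control libraries and 3 and 12 in the VHL-restored ones. The largest rises were those of MMP10 (log2 fold change 2.66), IL11 (1.91), the collagenase gene MMP1 (0.99) and ITGB6 (0.90), with edgeR FDR values of 0.00254, 1.49e-16, 0.00457 and 1.76e-05. IL11 went from 51.8 and 48.9 CPM to 150 and 211 CPM, whereas MMP10 rested on 2 and 3 counts in control cells and 4 and 14 counts in VHL-restored cells. The calls of MMP9, MMP10 and ITGB6 were lost without VHL-restored replicate 2, and that of MMP10 also without the deeper control library, while MMP9 had -0.94 without replicate 2. MMP1 was at 2.80 and 3.72 CPM in control cells and at 11.2 and 4.99 CPM in VHL-restored cells, and its log2 fold change was 1.80 without VHL-restored replicate 2 and 0.64 without replicate 1. Of the 23 calls in this list, 17 held with each library left out in turn. More genes of this list fell (55.6%) than rose (29.6%), beside 31.9% and 32.6% of all genes tested. Whether they follow the 10 factors was not tested.

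Immediate early transcripts can also rise with the handling of cells, and heat shock genes were read beside them. All 6 that could be tested were lower in VHL-restored cells, the median being -1.38 on the log2 scale, and the 7 in the table summed to 5566 and 5253 CPM in control cells and to 1967 and 1839 CPM in VHL-restored cells. HSPA1A had no row, and HSPA1B, at 0.339 CPM or less in every library, did not pass the filter on low counts. The part of handling in the result was not tested. Cell density, medium change and harvest are not given for each library.

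**Figure D5:**
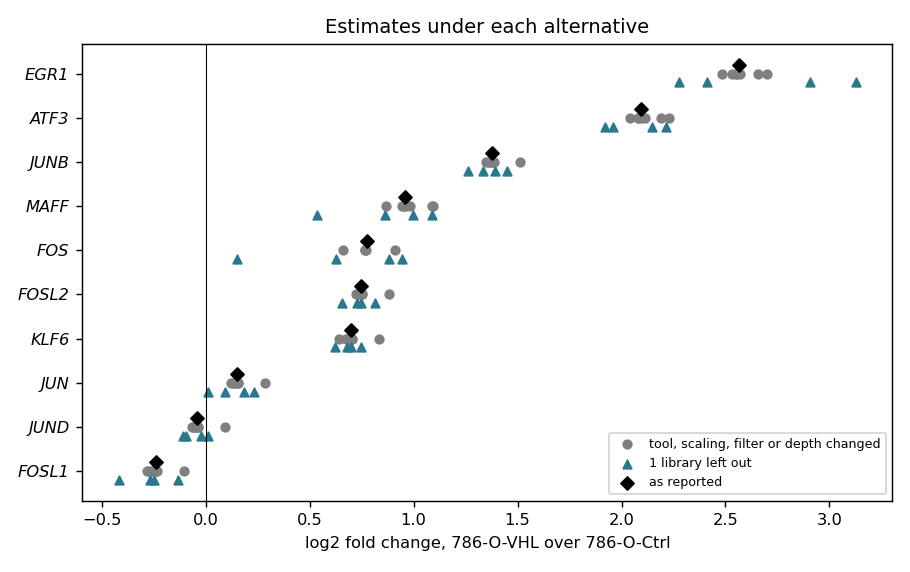
Log2 fold change of each factor as reported (diamonds), with another tool, scaling, filter or depth (circles) and with 1 library left out (triangles). The values of EGR1, ATF3, JUNB, MAFF, FOSL2 and KLF6 lie above 0 throughout and those of FOSL1 below it, while those of JUND fall on both sides.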

How the data were processed

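RNA was sequenced from control (786-O-Ctrl) and VHL-restored (786-O-VHL) cells, in duplicate. After alignment to hg19 the authors deposited raw counts for each gene in 1 table, without normalization. STAR and CASAVA are named in the submitters' processing notes. How the reads were counted (tool, strand, annotation) is not given in the sources used here. Groups follow the sample titles, and both control columns carry the same replicate number, so they are replicates without a number.

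The test was that of edgeR 4.0.16, run in R 4.3.3 (filterByExpr at a minimum count of 10, TMM, group as the only term, quasi-likelihood F test, Benjamini-Hochberg over 12335 genes), where the study used DESeq2. The filter removed 577 genes. Standard errors follow from the F statistic. The biological coefficient of variation was 4.31%. The chi-square per degree of freedom between replicates, 1 under sampling noise alone, was 2.25 for control and 2.76 for VHL-restored cells. Intervals and limits cover counting error only unless they come from the fit. RPKM divides CPM by the exon length in GENCODE v44lift37 (GRCh37), found for 12749 genes. On counts simulated for this comparison over 12335 genes, edgeR recovered 98 of 100 genes changed 4-fold and 90 of 100 changed 2-fold, with 8 false calls. Only 200 genes were changed there, as many up as down, and all genes had the same dispersion. In the data 64.5% of genes passed, so the rate of false calls does not carry over to them.

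The factors and the lists were chosen with earlier results of these data known. All 10 factors are named, and of each other list at most 4 genes per direction with the largest fold change at an FDR under 0.05. MRTFB, the genes whose calls held without each library, HOOK2 and PLA2G6 were named after their values were seen. The alternatives were DESeq2 1.42.0, limma-voom (limma 3.58.1), other scalings and filters, thinning to 2807779 counts per library, and each library left out. Upstream sequences are RefSeq's, in GRCh38.p14.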

Additional observations from a re-analysis of the deposited data

How the results depend on the processing

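The 6 factors higher in VHL-restored cells, EGR1, ATF3, JUNB, MAFF, FOSL2 and KLF6, kept their direction and an FDR under 0.05 in all 11 alternatives, with the lowest log2 fold changes at 2.27, 1.92, 1.26, 0.54, 0.66 and 0.62. Library totals alone moved the median of all genes by 0.13. With them, FOSL1 no longer passed and 0 factors were lower, the number of partners lower was 0, that of kinases lower 6 and that of turnover genes higher 2, and JUND turned to 0.091 (edgeR FDR = 0.229). With 1 library left out, JUND ranged from -0.11 to 0.0092, the latter without the deeper control library. JUN passed with limma-voom (0.16, FDR = 0.0228), library totals alone (0.28, edgeR FDR = 0.000469), at least 10 counts in every library (0.15, edgeR FDR = 0.0488) and without VHL-restored replicate 1 (0.23). FOS gave no value where 10 counts were required in every library and after thinning.

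With DESeq2, 8 partners were higher and 1 lower, 1 immediate early gene was lower and 3 kinases were higher. RLE scaling left 3 kinases higher. After thinning, 6 partners were higher, 1 immediate early gene was lower, and 2 kinases were higher and 6 lower. Over the fits that each lacked 1 library, the factors higher ranged from 6 to 7, the partners higher from 5 to 14 and lower from 0 to 3, the immediate early genes higher from 13 to 18 and lower from 2 to 3, the kinases higher from 3 to 5 and lower from 7 to 10, and the target genes higher from 6 to 8 and lower from 14 to 15, where a lone library is assumed to vary like the other group. The cause was not tested. Without division by exon length, the shares in control and VHL-restored cells were 48.1% and 31.6% for FOSL1, 51.8% and 68.3% for FOSL2, 54.5% and 43.9% for JUN, 20.2% and 38.1% for JUNB, and 25.3% and 18.0% for JUND, since a long gene then counts for more.

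No paired analysis was possible because both control columns carry the same replicate number. The depth of VHL-restored replicate 1, where 3 counts are 1.02 CPM, limits what can be said of FOS and of list genes near it.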
